A study of Homo sapiens with 64 samples.

Results

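Matrix metalloproteinases (MMPs) are zinc-dependent endopeptidases that are made as inactive precursors and cleave collagens, other matrix proteins and many cell-surface and secreted proteins. Tissue inhibitors of metalloproteinases (TIMPs) bind their active sites, and TIMP2 together with the membrane-bound MMP14 also takes part in activating the precursor of MMP2. In colorectal tumours secreted MMPs are known both from stromal cells and from the tumour cells themselves, and MMP7 is best known as an epithelial member of the family. The genes described here are 8 MMPs (MMP1, MMP3, MMP7, MMP10, MMP13, MMP14, MMP15 and MMP19) and 2 inhibitors (TIMP1 and TIMP2). They were taken by symbol, 10 of 54127 genes in the count tables, and each matched 1 Ensembl identifier.

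The data were RNA-seq read counts from 64 libraries of human colorectal cancer cell lines grown as nonadherent spheroids with bFGF and EGF. Of these, 48 came from cells labelled with CFSE, a dye whose signal is shared out between daughter cells, cultured for 6 days and sorted into label-retaining cells (LRC) and non-LRC (named BULK in the labels), with 4 libraries per population in each of 6 lines. HT55 and SW948 belong to the subtype the study calls CCS1, RKO and SW48 to CCS2, and DLD1 and HCT15 to CCS3. The other 16 were unsorted DLD1 controls given CFSE or the solvent DMSO and collected at d1 or d5, with 4 libraries each (the design text gives the later day as 6). Every group is a single cell line, so a difference between groups speaks for that line. In bulk libraries such as these, more cells expressing a gene and more RNA of it per cell cannot be told apart.

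Counts assigned to genes ranged from 12237225 to 20913455 per library (median 15063858). Levels are given as CPM, read counts scaled to the size of the library with TMM factors (trimmed mean of M values), and levels of different genes are compared only per kilobase of exon. All 8 colorectal epithelial markers listed for the check reached a mean of 1 CPM over the sorted libraries, although in non-LRC of RKO only 4 did, with a summed level of 217 to 324 CPM in the line. The summed level of 7 fibroblast markers stayed at or below 14.3 CPM, that of 3 endothelial markers at or below 3.55 CPM, and CD3E was at 0 in all libraries. The summed level of 6 leukocyte markers reached 1570 CPM, nearly all of it CD68, a lysosomal protein that is not restricted to macrophages. In the LRC test described below, 2 of the 4 leukocyte markers tested were called higher in LRC (CD68 and CSF1R), 0 of 2 fibroblast markers and 0 of 1 endothelial marker. CSF1R stayed at or below 0.54 CPM in non-LRC and reached 1.73 in LRC. It passed the filter on low counts only through LRC libraries, so its call is not taken as a test. The part of these markers in the results was not tested. Of 6 proliferation markers, MCM2 (log2 fold change -0.28 ± 0.07, SE, adjusted p = 0.00182) and PCNA (-0.23 ± 0.09, adjusted p = 0.0471) were lower in LRC across the 6 lines, and MKI67 did not pass (-0.39 ± 0.16, adjusted p = 0.0668). CCNB1 (-0.31), TOP2A (-0.06) and CDK1 (-0.02) did not pass either. By line, 4 of the 6 were called lower in RKO, 4 in DLD1 and none in the other lines. In HCT15 all 6 log2 fold changes were above 0, from 0.06 (MCM2) to 0.40 (TOP2A and CDK1), and none passed. In SW48 all 6 were below 0 (-0.81 to -0.12), and signs were mixed in SW948 (-0.29 to 0.27) and HT55 (-0.18 to 0.16). Of all genes tested, 10.7% were called lower across the lines, 2679 of 12731 in RKO and 7.89% in DLD1.

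A few libraries stood apart in these genes. In the unsorted controls, CFSE d1 replicates 1 and 2 held MMP1 at 90.9 and 98.2 CPM, whereas replicates 3 and 4 held 0.77 and 0.87 CPM. In that group 167 of 14518 genes differed by more than 2 on the log2 scale between the means of replicates 1 and 2 and of replicates 3 and 4, against 53, 49 and 19 genes in the other 3 control groups. MMP1 and MMP10 ranked 1 and 2 of all genes in that difference. Among the sorted cells, SW948 LRC replicate 4 held less MMP1, MMP3, MMP10 and TIMP2 than its 3 companion libraries. The results that rest most on these libraries are given with and without them.

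Over all 64 libraries TIMP1 collected 388645 counts, TIMP2 109355, MMP15 88215 and MMP14 41263, whereas MMP1 collected 6139, MMP10 1918, MMP3 1413, MMP19 221, MMP13 152 and MMP7 33. Per kilobase of exon in the sorted libraries, TIMP1 was the most abundant (a mean of 314 CPM per kb over 48 libraries), followed by MMP15 (20.2), TIMP2 (17.6), MMP14 (11.1) and MMP1 (1.57), and the other 5 were below 1. Much of the count of the low members came from the 2 CFSE d1 libraries named above, which supplied 2998 of the 6139 counts of MMP1 and 1290 of the 1413 of MMP3.

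MMP7, MMP10, MMP1, MMP3 and MMP13 belong to a cluster of MMP genes on chromosome 11, all on the minus strand, from MMP7 at 102391239-102401481 to MMP13 at 102813724-102826461 (GRCh37, the build of the alignment). MMP20, MMP27 and MMP8 lie between MMP7 and MMP10. MMP14 is on chromosome 14, MMP15 on 16, MMP19 on 12, TIMP1 on X and TIMP2 on 17. The strand setting of the counting is not given in the sources used here, and some members overlap a gene on the opposite strand. TMEM198B overlaps MMP19 and collected 15664 counts against 221 for MMP19, so values of MMP19 are uncertain. WTAPP1 overlaps MMP1, MMP3 and MMP10 but collected only 290 counts in all.

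The promoter table from RefSeq (GRCh38.p14) held 5 members. The 150 bases before the start site are shown for MMP10 and MMP7, the 2 members of the chromosome 11 cluster that it held. They are also shown for MMP14, which changed in LRC of some lines, and for TIMP1, the most abundant member. Capitals mark letters that match TGANTCA (N is any base), searched here as the AP-1 motif of FOS and JUN family factors, and the TATA box TATAAA. Both strands were searched, and the marked letters of the motifs did not overlap. The windows lie at chr11:102780629-102780778 (minus strand) for MMP10, chr11:102530748-102530897 (minus) for MMP7, chr14:22836435-22836584 (plus) for MMP14 and chrX:47582286-47582435 (plus) for TIMP1.
MMP10: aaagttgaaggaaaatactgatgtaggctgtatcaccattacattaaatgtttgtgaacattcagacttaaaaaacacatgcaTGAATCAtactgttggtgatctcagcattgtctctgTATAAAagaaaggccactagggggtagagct
MMP7: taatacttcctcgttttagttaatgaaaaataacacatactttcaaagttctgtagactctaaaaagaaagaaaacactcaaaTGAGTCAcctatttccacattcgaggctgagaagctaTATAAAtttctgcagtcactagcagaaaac
MMP14: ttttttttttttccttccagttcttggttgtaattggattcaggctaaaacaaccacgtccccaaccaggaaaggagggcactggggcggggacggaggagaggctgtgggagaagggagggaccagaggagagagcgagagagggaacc
TIMP1: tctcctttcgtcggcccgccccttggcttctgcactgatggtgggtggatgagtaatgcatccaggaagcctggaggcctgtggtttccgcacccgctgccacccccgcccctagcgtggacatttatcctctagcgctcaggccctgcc
In MMP10 and in MMP7 the AP-1 letters began 67 bases before the start site, and the TATA letters began 31 and 30 bases before it. The 300-base windows (250 before and 50 after the start site) of MMP14, MMP15 and TIMP1 held neither. Of the 35116 promoters searched, a part of the table, 7.71% held the AP-1 letters and 11.5% the TATA letters. PEA3/ETS letters (AGGAAG) were in MMP7 and TIMP1 and in 33.6% of the promoters searched. TCF/LEF letters (CTTTGAA) were in MMP7 and in 4.43% of those searched. A match of letters is a description of the window and not evidence of binding.

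The order of the lines differed from gene to gene. TIMP1 was highest in RKO (non-LRC mean 1369 CPM ± 215, SD, n = 4), apart from SW48 (408 ± 90.6), and lowest in SW948 (62.4 ± 3.3). RKO was at the opposite end for TIMP2 (2.98 ± 0.996 CPM against 204 ± 10.5 in HCT15) and for MMP15 (10.6 ± 0.93 against 146 ± 11.7 in HCT15). MMP14 was highest in HT55 (87.0 ± 3.0) and RKO (74.4 ± 5.9) and lowest in DLD1 (1.47 ± 0.70), whereas MMP1 was above 2 CPM in non-LRC of RKO only (11.1 ± 1.7).

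The ranges of neighbours in the non-LRC orders overlapped for SW48 and HCT15 and for DLD1 and HT55 in TIMP1 and for HCT15, SW48, DLD1 and HT55 in turn in TIMP2. They also overlapped for HT55, DLD1, SW48 and SW948 in turn in MMP15 and for SW48 and SW948 in MMP14. RKO did not overlap its nearest line in TIMP1, TIMP2, MMP15 or MMP1, and DLD1 did not overlap its nearest line in MMP14.

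**Figure D1:**
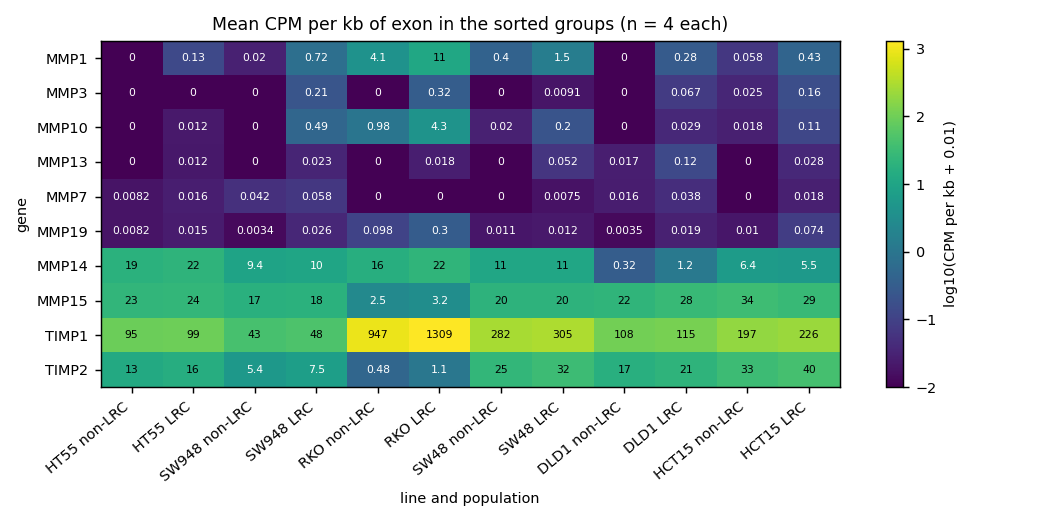
Mean CPM per kilobase of exon for the 10 genes (rows) in the 12 sorted groups (columns, n = 4 libraries each). Colour gives log10 of the value plus 0.01, and the number in each cell is the value itself. TIMP1 is the brightest row in every group, and DLD1 non-LRC has the darkest cell of MMP14.

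Across the 6 lines, 5 of the 10 members were called higher in LRC than in non-LRC and none was called lower. These were MMP10, MMP1, MMP19, TIMP2 and MMP14, of which MMP19 passed the filter on low counts only through the 4 LRC libraries of RKO, where it was highest, so its call is not taken as a test. The model was edgeR's quasi-likelihood test with line as a term, fitted on 16603 genes that reached 10 counts in 4 or more of the 48 libraries, and 7 members passed this filter. Of all genes tested, 22.9% were called at an adjusted p under 0.05, and 12.2% were called higher in LRC. MMP3, MMP7 and MMP13 did not pass the filter and are described by their counts.

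MMP1, an interstitial collagenase, rose in LRC across the lines (log2 fold change 2.18 ± 0.28, SE, adjusted p = 2.89e-07). In RKO its 4 LRC libraries held 30.2, 29.98, 28.3 and 34.8 CPM and its 4 non-LRC libraries 9.996, 10.04, 10.97 and 13.6. In HCT15 the values were 1.54, 0.68, 1.16 and 1.37 CPM in LRC and 0.18, 0.06, 0.06 and 0.34 in non-LRC. Both lines had every LRC library above every non-LRC library. In DLD1 LRC it was at 1.57, 1.05, 0.34 and 0.16 CPM, whereas all 4 non-LRC libraries were at 0. With 45 counts, LRC of DLD1 were 15.4-fold above a floor of 3 counts over the non-LRC group.

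SW948 and SW48 held the same order of groups for MMP1. In SW948 LRC it was at 2.67, 2.49, 2.45 and 0.26 CPM (122 counts), against 3 counts in all in non-LRC, a ratio of 37.3 with a counting interval of 12.5 to 183 (exact, 95%). Without LRC replicate 4 the ratio was 50.8 (117 counts against 3, interval 16.97 to 250.04). SW48 held 3.04, 2.44, 7.37 and 3.13 CPM in LRC and 0.77, 1.82, 1.46 and 0.31 in non-LRC. HT55 was different, with 24 counts in LRC replicate 3 and 0 counts in the other 7 libraries. All 4 LRC values of MMP1 lay above all 4 non-LRC values in 5 of 6 lines. Of all genes with a count, 2.21% did so in SW948, 10.6% in RKO, 2.97% in SW48, 5.27% in DLD1 and 3.17% in HCT15. Counting intervals here cover counting error only, and these reads carry no molecular identifiers. A fold above a floor takes the higher count as exact and is not a lower bound.

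In the separate fit of each line, MMP1 passed in RKO (1.47 ± 0.11, adjusted p = 1.43e-07). In HCT15 it was called (2.91 ± 0.48, adjusted p = 0.0327), but it had passed the count filter only through the 4 LRC libraries, where it was high, so the call is not taken as a test. It was also lost without any 1 of its 8 libraries: without a non-LRC library the adjusted p ranged from 0.0618 to 0.103, and without an LRC library MMP1 no longer passed the filter on counts. In SW48 the value was 1.83 ± 0.49 (adjusted p = 0.137), and it passed with the replicate number as a block (1.85, adjusted p = 0.0109). DLD1, SW948 and HT55 had too few counts for the filter. The LRC effect of MMP1 was not called different between lines (adjusted p = 0.0704), but it was with the block (adjusted p = 0.000183).

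MMP10, a stromelysin that also activates other MMP precursors, had the largest fold of the members tested across the lines (2.55 ± 0.30, adjusted p = 8.15e-08). In RKO it was at 7.18, 6.78, 6.97 and 9.22 CPM in LRC and 1.88, 1.04, 1.88 and 2.13 in non-LRC (2.13 ± 0.21, adjusted p = 1.77e-06). Outside RKO it was low. SW948 LRC replicates 1 to 3 held 13, 15 and 25 counts, and LRC replicate 4 and all non-LRC libraries held 0. In SW48 there were 19 counts in LRC and 2 in non-LRC (ratio 10.3, interval 2.48 to 91.1), in HCT15 14 and 2 (ratio 6.71, interval 1.54 to 60.8), in DLD1 3 and 0, and in HT55 1 and 0. Without RKO, MMP10 no longer passed the filter. Its LRC effect was not called different between lines (adjusted p = 0.255), but it was with the replicate block (adjusted p = 0.0398).

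MMP3, the other stromelysin, and MMP13, a collagenase, were at the edge of detection with a similar layout. MMP3 had 88 counts in the 24 LRC libraries and 3 in the 24 non-LRC libraries (ratio 28.7, interval 9.49 to 142). Its LRC counts were 35 in RKO, 24 in SW948 (all in replicates 1 to 3), 21 in HCT15, 7 in DLD1, 1 in SW48 and 0 in HT55. In RKO the 4 LRC libraries held 8, 6, 8 and 13 counts and non-LRC none. MMP13 had 43 counts in LRC and 3 in non-LRC (ratio 14.01, interval 4.48 to 70.6), of which 20 and 3 were in DLD1. No test stands behind these counts.

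MMP7, known as matrilysin, was nearly absent from these libraries. It had 20 counts in the 24 LRC libraries and 9 in the 24 non-LRC libraries, and the counting interval of the ratio, 0.95 to 5.42, reached below 1. RKO held 0 counts in 8 libraries, and SW948 held 9 in LRC and 6 in non-LRC.

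MMP19, a secreted MMP outside the cluster, had a log2 fold change of 1.71 ± 0.27 across the lines (adjusted p = 6.19e-06). Its values in RKO were 1.10, 1.48, 1.07 and 1.90 CPM in LRC and 0.60, 0.45, 0.47 and 0.31 in non-LRC (1.64 ± 0.33, adjusted p = 0.00111), without overlap. Only the 4 LRC libraries of RKO held 10 or more counts, so MMP19 entered both fits through the group where it was high, and neither p is taken as a test. In HCT15 it had 23 counts in LRC and 3 in non-LRC (ratio 7.35, interval 2.22 to 38.2). Its counts were few in every line, and it passed the filter in neither the fit without RKO nor the fits that left out any replicate number. The overlapping TMEM198B makes the origin of these reads uncertain.

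**Figure D2:**
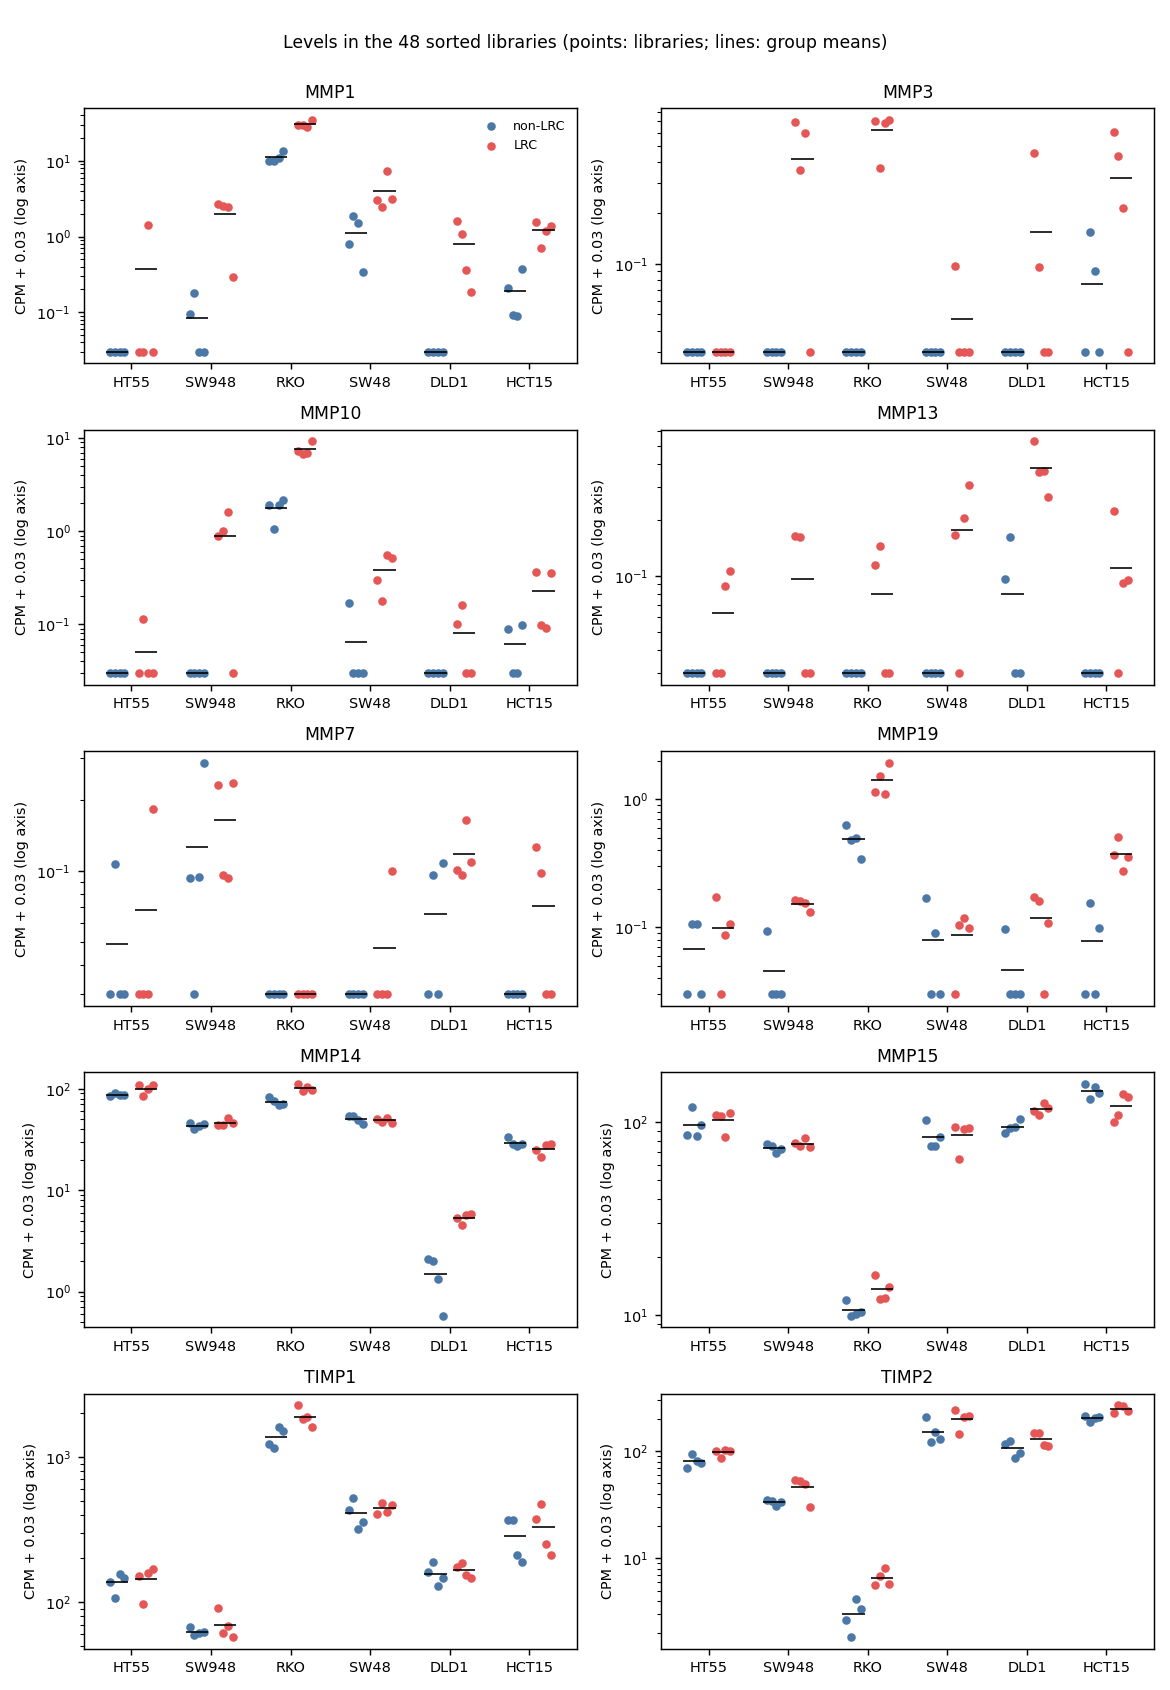
CPM plus 0.03 on a log axis for the 10 genes in the 48 sorted libraries, by line. Blue points are non-LRC and red points LRC libraries, and black lines are group means (n = 4). Points at the bottom edge in the low genes are libraries with 0 counts. The red points of MMP1 lie above the blue in all lines but HT55, and those of MMP14 stand clear of the blue in RKO and DLD1.

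MMP14, the best known membrane-type MMP, differed in its LRC effect between lines (adjusted p = 3.46e-08), and 14.3% of all genes did so. In DLD1 it rose in LRC from 2.06, 1.97, 1.31 and 0.55 CPM to 5.35, 4.55, 5.70 and 5.74 (1.85 ± 0.28, adjusted p = 0.00256), with no overlap. In RKO the LRC values were 111, 95.4, 103 and 98.01 CPM and the non-LRC values 82.4, 74.9, 68.7 and 71.5 (0.45 ± 0.08, adjusted p = 0.00023). In the other 4 lines the log2 fold changes were 0.21 in HT55, 0.10 in SW948, -0.04 in SW48 and -0.19 in HCT15, and none passed. Its small value across the lines (0.24 ± 0.08, adjusted p = 0.0299) was lost with the replicate block (0.23, adjusted p = 0.0795), without DLD1 (0.11, adjusted p = 0.135), without RKO (0.19, adjusted p = 0.206), without HT55 (0.26, adjusted p = 0.0555) and without replicate number 1, 3 or 4 (adjusted p = 0.0708 to 0.194).

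The level of MMP14 in sorted DLD1 was far below that in the unsorted DLD1 controls. The 16 control libraries ranged from 15.9 to 27.1 CPM, whereas the sorted DLD1 libraries ranged from 0.55 to 2.06 in non-LRC and from 4.55 to 5.74 in LRC. These sets differ at least in sorting, in dye (8 of the 16 controls were given DMSO) and, for d1, in day, and were not tested against each other.

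MMP15, another membrane-type MMP, had log2 fold changes of opposite sign in the lines of CCS3, and the DLD1 value alone passed without a block. In DLD1 it was at 114, 109, 126 and 118 CPM in LRC and 87.7, 92.9, 94.96 and 104 in non-LRC (0.32 ± 0.07, adjusted p = 0.0103, and 0.125 with all 48 libraries in 1 fit). HCT15 had 100.2, 109, 139.5 and 135 CPM in LRC and 158, 132, 153 and 141 in non-LRC (-0.25 ± 0.11, adjusted p = 0.291). With the replicate number as a block the HCT15 value was -0.26 at adjusted p = 0.0254. The test of a difference between lines gave adjusted p = 0.0557, and 0.00265 with the block. In RKO it rose (0.36 ± 0.12, adjusted p = 0.0239), a call that was lost without LRC replicate 1 or 4 or non-LRC replicate 2 or 4 (adjusted p = 0.0554 to 0.0682). Across the lines it did not pass (0.09 ± 0.05, adjusted p = 0.232).

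TIMP2, an inhibitor that also binds MMP14, was higher in LRC across the lines. Its log2 fold change was above 0 in all 6 lines, with 0.28 in HT55, 0.48 in SW948, 1.14 in RKO, 0.41 in SW48, and 0.31 in both DLD1 and HCT15, and it rose across the lines (0.42 ± 0.07, adjusted p = 3.05e-05). That call held without each line and without each replicate number. In RKO, where it was scarcest, the LRC libraries held 5.66, 6.78, 8.03 and 5.74 CPM and the non-LRC libraries 2.63, 1.81, 4.15 and 3.32 (adjusted p = 0.000607). HCT15 LRC held 229, 268, 262 and 238 CPM and its non-LRC 213, 189, 205 and 208, with no overlap.

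RKO was the only line whose own fit called TIMP2 without a block. The 4 lines whose replicate numbers paired the libraries were HT55, SW48, DLD1 and HCT15, and with the block TIMP2 was called in SW48 (0.42, adjusted p = 0.0126), DLD1 (0.32, adjusted p = 5.58e-06) and HCT15 (0.31, adjusted p = 0.00417). In SW948 the adjusted p was 0.168, and 0.000166 without LRC replicate 4, the library at 30.2 CPM beside 53.5, 52.6 and 49.4. The difference of the TIMP2 effect between lines had an adjusted p of 0.17, and of 0.0418 with the block.

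TIMP1, the most abundant inhibitor, rose in LRC of RKO, from 1234, 1144, 1602 and 1496 CPM to 2261, 1836, 1875 and 1597 (0.47 ± 0.12, adjusted p = 0.00576, and 0.0631 with all 48 libraries in 1 fit). The groups overlapped only where non-LRC replicate 3 lay above LRC replicate 4. Its value across the lines was 0.19 ± 0.08 at adjusted p = 0.0768, and 0.19 at adjusted p = 0.00505 with the block. In HCT15 the spread between libraries was wide, with replicates 1 and 2 at 374 and 470 CPM in LRC and 369 and 370 in non-LRC, and replicates 3 and 4 at 253 and 212 in LRC and 211 and 190 in non-LRC. The HCT15 value of 0.22 ± 0.28 (adjusted p = 0.712) passed with the block (0.22, adjusted p = 0.0286), as LRC was above non-LRC in every same-numbered pair. Replicates 1 and 2 were also above replicates 3 and 4 in TIMP1 in both sorted DLD1 groups and in SW48 non-LRC, but below them in both HT55 groups and in RKO non-LRC. No label names a batch for these numbers.

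**Figure D3:**
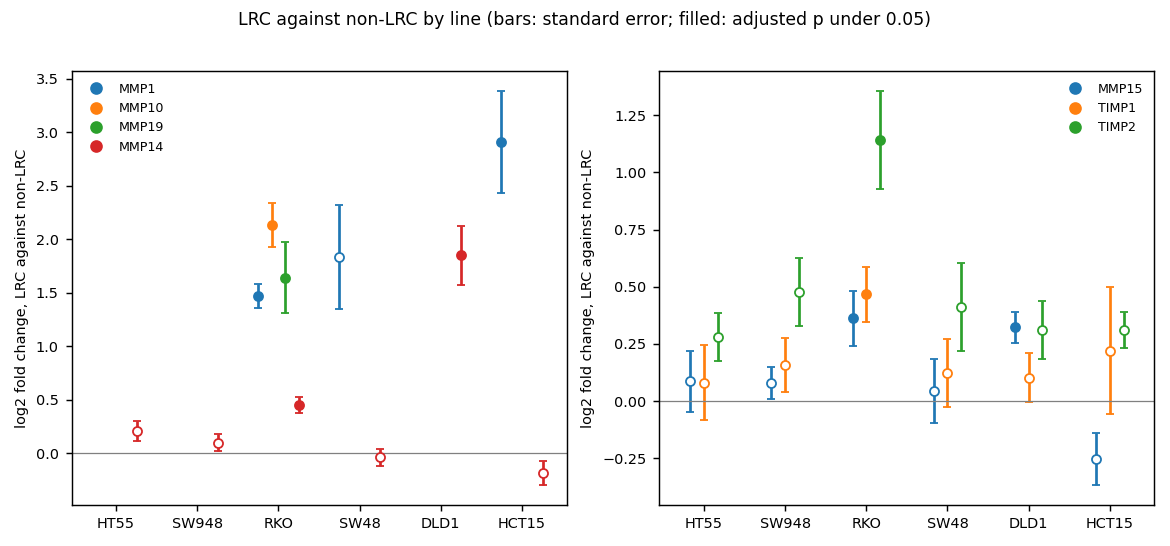
Log2 fold change of LRC against non-LRC from the fit of each line (4 against 4 libraries), with bars for the standard error. Filled points passed an adjusted p under 0.05, open points did not, and members below the count filter in a line are not drawn. MMP14 reaches 1.85 in DLD1 and lies near 0 in SW48, and TIMP2 lies above 0 in all 6 lines. The filled points of MMP1 in HCT15 and MMP19 in RKO are genes that passed the count filter only through their LRC libraries.

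By line, all 7 members tested were called higher in RKO (with MMP19, which entered through its LRC libraries, among them), where 41.5% of 12731 genes were called and 20.4% were higher. In DLD1 2 of 4 members tested were called (14.6% of 13592 genes, 6.67% higher and 7.89% lower) and in HCT15 1 of 5, the MMP1 call described above (0.977% of 14017 genes, 0.728% higher and 0.25% lower). None was called of 5 in SW48 (0.796% of 13196 genes, 0.72% higher and 0.0758% lower) or of 4 in each of HT55 and SW948, where 0 of 13391 and 0 of 13674 genes were called (0.0% in each). In HT55 and SW948 the counts at an unadjusted p under 0.05 were 1005 and 2350 genes, among them 2 members and 1 member, and DESeq2 called 37 and 244 genes and no member. Leaving out 1 library moved these counts as well, to 521 genes in HT55 without non-LRC replicate 2 and 43 without LRC replicate 2, and to 1956 in SW948 without LRC replicate 4. All 4 LRC values lay above all 4 non-LRC values for 7 of 9 members with a count in RKO (10.6% of genes with a count). The same held for 4 of 10 in DLD1 (5.27%) and 3 of 10 in HCT15 (3.17%). It held for 2 of 10 in SW948 (2.21%), 2 of 10 in SW48 (2.97%) and 0 of 9 in HT55 (1.29%). No member lay below in any line, as 1.06% of genes did in HT55, 1.32% in SW948, 10.2% in RKO, 2.05% in SW48, 6.74% in DLD1 and 3.18% in HCT15.

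Companions of the pathway were listed by function. Of 15 other MMPs listed, 13 were in the tables, 5 could be tested across the 6 lines and none was called. Among 9 other inhibitors and binding partners 3 of 8 tested were higher in LRC, namely LCN2, a lipocalin that binds MMP9 (1.15 ± 0.27, adjusted p = 0.00149), LRP1, an endocytic receptor that clears MMPs (0.42 ± 0.11, adjusted p = 0.00387), and CD44, a hyaluronan receptor that can hold MMPs at the surface (0.15 ± 0.05, adjusted p = 0.0136). Of 14 activators of MMP precursors tested 2 were higher, CTSB, a lysosomal cysteine protease (0.26 ± 0.04, adjusted p = 1.4e-05), and PCSK5, a proprotein convertase (0.24 ± 0.08, adjusted p = 0.02). ADAM10 alone was called among 10 ADAM and ADAMTS genes (0.10 ± 0.04, adjusted p = 0.0386). Among 18 transcription factors known to act on MMP promoters FOSL2, a FOS family member (0.29 ± 0.05, adjusted p = 8.02e-05), and ELF3, an epithelial ETS factor (0.46 ± 0.09, adjusted p = 0.000129), were higher. Of all genes tested 12.2% were called higher, and the shares of the activators, the ADAM and ADAMTS genes and the transcription factors lie near that. No gene of these 5 lists was called lower, and 10.7% of all genes were.

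Likeness within lines was measured as Pearson's r of log2 CPM centred on each line's mean, over 48 libraries that share line and sort. It is a description, since LRC status itself moves many genes. The closest genes to MMP1 were NPR3 (r = 0.79), ANKRD1 (0.78) and NEU1 (0.78), and to TIMP2 EEIG1 (0.85), EPAS1 (0.83) and GBP2 (0.83). For TIMP1 they were SERINC2 (0.84), SHC1 (0.84) and SH3BGRL3 (0.82), for MMP15 SNX33 (0.83), GAA (0.83) and SEZ6L2 (0.81), and for MMP14 SATB1 (0.80), CADPS2 (0.77) and CLGN (0.74). By Spearman's rho 1 of these 3 stayed among the closest 3 for MMP1, 0 for MMP14 and 2 for each of the others. Among the 5 members above a mean of 1 CPM, MMP1 and TIMP2 had the highest r with each other (0.61), and MMP15 and TIMP1 the lowest (-0.06).

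The unsorted DLD1 controls address what the dye and the days in culture do by themselves. The contrasts share groups, so their results are not independent of each other. At d1, MMP1 and MMP10 were called higher with CFSE than with DMSO, 2 of 6 members tested, where 21.8% of 14518 genes were called and 9.73% were higher. Both genes had passed the count filter through the 4 CFSE d1 libraries, where they were high (MMP1 reached 10 counts in 1 other control library and MMP10 in none), so their calls are not taken as tests here or in the time contrast with CFSE.

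MMP1 was at 0 counts in all 4 DMSO d1 libraries and held 1445, 1553, 12 and 18 counts in CFSE d1 (adjusted p = 0.00344). CFSE d1 replicates 1 and 2 were 2245-fold above the floor of 3 counts over the DMSO d1 group, and replicates 3 and 4 were 19.7-fold above it. MMP10 held 599, 625, 18 and 13 counts with CFSE and 1, 2, 0 and 0 with DMSO (adjusted p = 0.00301). The fitted folds of such genes depend on the fit's small added count and are not given.

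MMP3 and MMP13 had the same layout in these libraries but did not pass the filter. MMP3 held 628, 662, 5 and 22 counts in CFSE d1 and 3 counts in all in DMSO d1 (ratio 966 for replicates 1 and 2, interval 330 to 4691, and 17.7 for replicates 3 and 4, interval 5.45 to 91.1). MMP13 held 52, 50, 1 and 1 counts against 2 (ratio 115, interval 30.9 to 959, and 1.97, interval 0.14 to 27.1). MMP7 was at 0 in both groups. MMP19 had 22 counts against 18.

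Leaving out CFSE d1 replicates 1 and 2 also lowers power, so a lost call does not show that a difference was absent. Without them, neither MMP1 nor MMP10 passed the filter, no member was called at d1, and the number of genes called fell from 3162 to 196. Other genes set the same 2 libraries apart, chosen here after their values were seen. FOS was at 606, 565, 31.1 and 34.1 CPM in CFSE d1, against 73.5, 70.8, 24.4 and 22.4 in DMSO d1. FOSB was at 297, 267, 12.8 and 11.03, against 20.9, 17.7, 5.05 and 2.53 in DMSO d1. HSPA6, a heat-inducible chaperone, was at 132, 109, 10.3 and 6.39, against 1.52, 1.11, 0.46 and 0.27 in DMSO d1. In DMSO d1, too, replicates 1 and 2 lay above replicates 3 and 4 in FOS, FOSB and HSPA6, with a smaller gap. The inhibitor TIMP3 was at 15.5, 15.1, 0.64 and 0.44 CPM, against 0.22 to 0.49 in DMSO d1. In sorted DLD1 non-LRC, where MMP1 was at 0 counts, FOS was at 104 to 233 CPM and FOSB at 6.72 to 19.7. HSPA6 was at 0.20 to 0.86 CPM in that group and TIMP3 at 20.01 to 48.9. Sorted DLD1 LRC held FOS at 110 to 284 CPM and MMP1 at 0.16 to 1.57. The sorted libraries were not tested against the controls. The part of these genes, and of whatever set the 2 CFSE d1 libraries apart, in the MMP values was not tested. Among the listed transcription factors 8 of 18 were called higher with CFSE at d1, FOS, FOSB, JUN and FOSL1 among them, and 2 lower, where 9.73% of all genes were higher and 1749 of 14518 were lower. Without the 2 libraries none of the 18 was called, and 0.369% of all genes were higher and 0.996% lower. Of the leukocyte markers CD68 (17.3 against 3.89 CPM) and ITGAM (5.20 against 0.74) were also called higher there, while PTPRC stayed at or below 0.06 CPM in all controls. Without the 2 libraries CD68 was still called (log2 fold change 1.53, adjusted p = 0.039) and ITGAM was not (-0.06, adjusted p = 0.979).

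At d5 the cluster genes were at low counts with CFSE as well. MMP1 held 10, 4, 3 and 0 counts and 1, 0, 0 and 0 with DMSO (ratio 16.2, interval 2.54 to 679), MMP3 2 counts in all against 0, MMP10 3 against 0 and MMP13 0 in both. No member of 6 tested was called for dye at d5 (5.13% of genes were, 3.11% higher and 2.03% lower, 745 by edgeR and 1521 by DESeq2, which called no member either), and 2 members had an unadjusted p under 0.05. The 745 calls fell to 0 without CFSE d5 replicate 1 or 2, to 1, 122 and 16 without DMSO d5 replicate 1, 3 or 4, and were 1923 without DMSO d1 replicate 4. TIMP1 was at 449.9, 452, 295 and 309 CPM with CFSE and 282, 348, 191 and 205 with DMSO, which overlapped (0.56 ± 0.20, adjusted p = 0.0951, and 0.0412 without DMSO d5 replicate 2). TIMP2 was at 115, 112, 124 and 137 CPM with CFSE and 157, 138, 171 and 156 with DMSO, below without overlap (-0.35 ± 0.17, adjusted p = 0.203, and 0.0279 without DMSO d1 replicate 4).

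**Figure D4:**
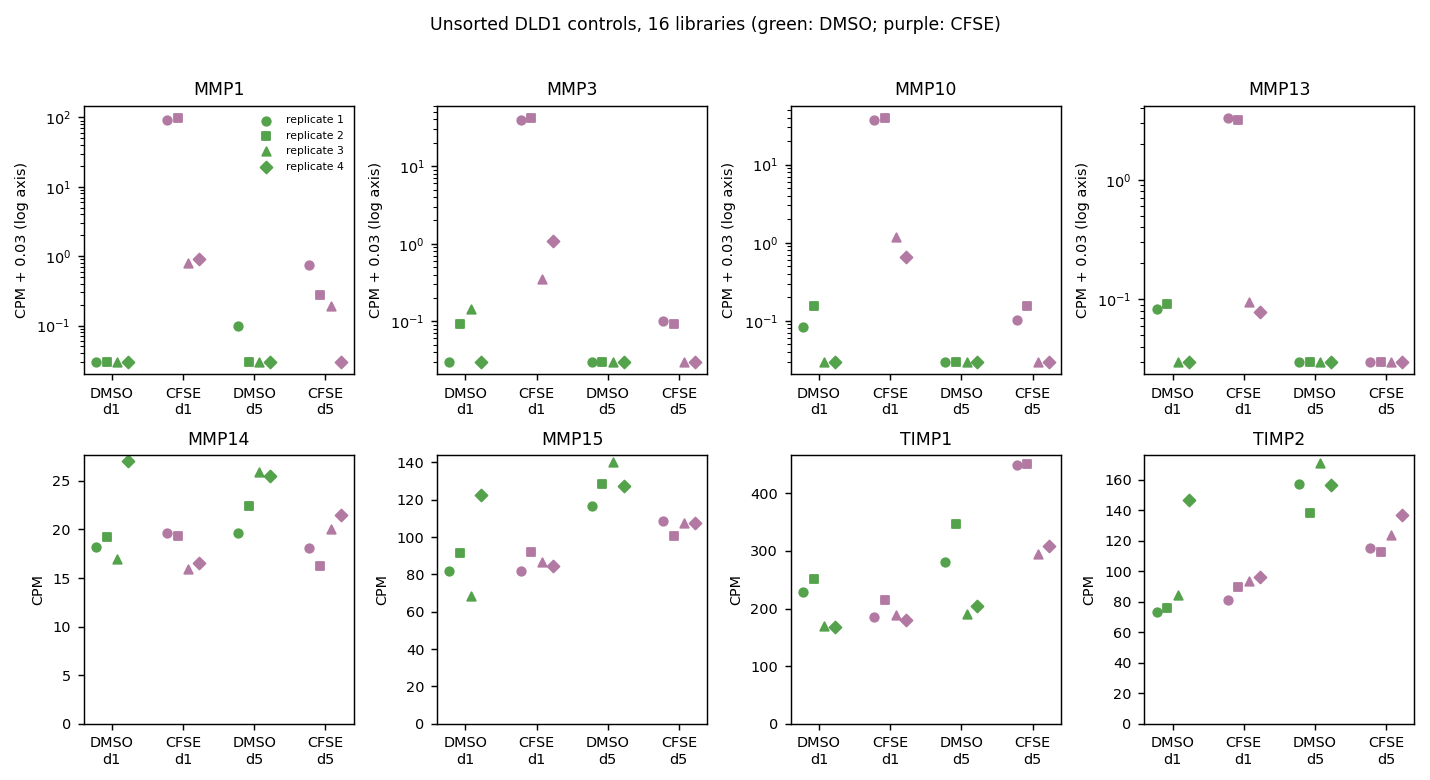
Levels of 8 members in the 16 unsorted DLD1 libraries by dye and day, with the replicate number as the marker shape. The upper 4 panels show CPM plus 0.03 on a log axis and the lower 4 CPM on a linear axis from 0. CFSE d1 replicates 1 and 2 stand apart in MMP1, MMP3, MMP10 and MMP13 and in none of the lower panels, and DMSO d1 replicate 4 is the highest of its group in MMP14, MMP15 and TIMP2.

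Between d1 and d5, averaged over both dyes, 3 of 6 members tested rose, where 49.5% of genes were called, 26.4% higher and 23.1% lower. MMP1 (18 counts at d5 against 3028 at d1) and MMP10 (3 against 1258) were not called in this contrast, and their d1 counts came almost wholly from the CFSE libraries. TIMP2 rose by 0.52 ± 0.12 (adjusted p = 0.00185), TIMP1 by 0.59 ± 0.14 (adjusted p = 0.00251) and MMP15 by 0.34 ± 0.09 (adjusted p = 0.00636). These calls held without the 2 CFSE d1 libraries, and that of MMP15 was lost without TMM (0.22, adjusted p = 0.0623). MMP14 did not pass (0.09 ± 0.11, adjusted p = 0.533). Within CFSE the libraries went from 185, 214, 188 and 179.5 CPM of TIMP1 at d1 to the 295 to 452 given above (0.90 ± 0.20, adjusted p = 0.0026), without overlap.

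By dye, the time contrast called TIMP1, MMP10 and MMP1 with CFSE (39.3% of genes called, 20.2% higher and 19.1% lower), TIMP1 higher and the other 2 lower at d5. MMP1 went from 3028 to 17 counts and MMP10 from 1255 to 3 between the CFSE groups, and without the 2 CFSE d1 libraries only TIMP1 remained called. With DMSO it called TIMP2 (0.67 ± 0.17, adjusted p = 0.0125) and MMP15 (0.46 ± 0.13, adjusted p = 0.022), where 25.5% of genes were called and 12.4% were higher. TIMP2 with DMSO went from 73.5, 76.1, 84.7 and 147 CPM to 157, 138, 171 and 156, which overlapped through d1 replicate 4. Both calls were lost without DMSO d1 replicate 1 (adjusted p = 0.0542 for TIMP2 and 0.0792 for MMP15), and that of MMP15 also without TMM (0.0809) or without d1 replicate 2 (0.0585) or 3 (0.0761) or d5 replicate 3 (0.0575). The dye by time interaction called none of 6 members (0.999% of genes, 145 by edgeR and 623 by DESeq2, no member by either), with 1 member at an unadjusted p under 0.05 (TIMP1, 0.62 ± 0.28, adjusted p = 0.274). Without DMSO d1 replicate 4 it called TIMP2 (-0.53, adjusted p = 0.0375).

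The companion lists moved in both directions over time in the controls. Of all genes tested 49.5% were called, 26.4% higher and 23.1% lower. All 3 other MMPs tested were called, MMP11 (1.31 ± 0.22, adjusted p = 0.000239) and MMP24 (0.51 ± 0.17, adjusted p = 0.0212) higher and MMP25 lower (-2.38 ± 0.46, adjusted p = 0.000564). Among other inhibitors and binding partners 5 of 8 rose, with CD44 (1.31 ± 0.19, adjusted p = 8.13e-05), CD63 (0.44 ± 0.07, adjusted p = 0.000115) and BSG (0.46 ± 0.10, adjusted p = 0.00106) first, and TIMP3 fell (adjusted p = 0.0275), a gene that was high at d1 in the 2 CFSE libraries only. Of 13 activators 7 rose, led by the kallikreins KLK10 and KLK6 and by PLAT, and PCSK7 and PLAUR were among those that fell. Of 7 ADAM and ADAMTS genes 4 rose, led by ADAM19, ADAM9 and ADAM10, and ADAM8 fell. Of 18 transcription factors 3 rose (LEF1, ETS2 and FOSL2) and 7 fell, led by RUNX1, JUN and FOSB. Without CFSE d1 replicates 1 and 2, TIMP3 (-0.28, adjusted p = 0.575) and MMP24 (0.47, adjusted p = 0.0731) were no longer called, FOSB went from -3.60 to -1.82 (adjusted p = 0.00369) and JUN from -2.02 to -1.001 (adjusted p = 0.000514). In that fit 3 of the 18 transcription factors rose and 6 fell, and 4 of the 8 inhibitors and binding partners rose. Of all genes 20.8% were called higher there and 23.1% lower.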

How the data were processed

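Reads were single-end, 50 bp, aligned to hg19. The submitters' processing notes name TopHat, HTSeq and DESeq, with versions, annotation and strand setting not given in the sources used here. The authors deposited raw read counts per Ensembl gene, 1 table per library, used here as deposited. Rows that name no gene were left out (no feature, 5.19 to 14.77% of reads; ambiguous, 1.52 to 2.21%). Exon lengths and positions came from GENCODE on GRCh37. Groups came from the labels.

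edgeR 4.0.16 (R 4.3.3) was used with TMM, glmQLFit and glmQLFTest on genes that reached 10 counts in 4 or more samples, Benjamini-Hochberg adjustment over all genes tested and a threshold of 0.05. The standard error is the log2 fold change divided by the square root of F. The steps were tested on simulated data. For LRC against non-LRC in RKO, 88.9% of genes changed by 1 on the log2 scale and 99% of those changed by 2 were recovered over 12619 genes. For time in the CFSE-labelled DLD1 controls these shares were 64.6% and 93.9% over 14287 genes.

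Replicate numbers were taken to pair libraries where the deviations of every same-numbered pair correlated above 0.1. This held in HT55 (0.221 to 0.511), SW48 (0.185 to 0.61), DLD1 (0.255 to 0.503) and HCT15 (0.334 to 0.563), not in SW948, RKO or the controls. The methods give biological quadruplicates. No pair of libraries was identical.

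The members and lists were chosen with earlier results of these data known. The text names all 10 members, for each companion list up to 3 called genes per direction with the smallest p, and for each member above a mean of 1 CPM the 3 most alike genes. Alternatives were DESeq2 1.42.0, no TMM, other filters, the replicate block, all 48 samples in 1 fit, and fits leaving out libraries, replicate numbers or lines. MMP12, MMP28 and PECAM1 were not analysed here, and 1 called gene of the activator list is not reported here.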

Additional observations from a re-analysis of the deposited data

Results flagged for a closer look

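In 10 of 84 groups of 4 libraries the highest or lowest library stood far from the others, where chance gives about 1 in 20 groups. MMP1 was at 1.39 CPM in HT55 LRC replicate 3 and at 0 in the other 3 libraries, at 0.26 in SW948 LRC replicate 4 (group median 2.47), and at 7.37 in SW48 LRC replicate 3 (median 3.08). MMP3 was at 0.34 CPM in RKO LRC replicate 2 (median 0.67), and MMP10 at 9.22 in RKO LRC replicate 4 (median 7.07). MMP15 was at 84.1 CPM in HT55 LRC replicate 3 (median 107.9), at 64.7 in SW48 LRC replicate 2 (median 92.6), and at 100.6 in DLD1 CFSE d5 replicate 2 (median 107.4). TIMP2 was at 86.1 CPM in HT55 LRC replicate 2 (median 100.8) and at 146.8 in DLD1 DMSO d1 replicate 4 (median 80.4).

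The LRC effect of MMP14 differed between the 6 lines by the test of the difference itself (adjusted p = 3.46e-08, F = 21.9), with log2 fold changes from -0.19 in HCT15 to 1.85 in DLD1. The cause was not tested.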

How the results depend on the processing

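No called value of a member changed sign among 1335 refitted member values. Of these, 1263 kept their side of the threshold, 28 lost the call and 44 gained it. A member was not tested in 103 further cases, and 30 uncalled values changed sign. Without TMM 16 of 160 group levels moved by more than the spread between libraries. Low counts limit MMP3, MMP7, MMP13 and MMP19.

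The number of members called across the 6 lines was 5, and 2 with at least 10 counts in every sample or without RKO. Without a filter it went from 0 to 4 in SW948, 0 to 1 in SW48, 2 to 5 in DLD1, 1 to 4 for the difference between lines, 3 to 5 for time with CFSE, 2 to 4 for dye at d1, 0 to 1 for dye at d5 and 3 to 7 for time over both dyes. That fit also takes in genes of very few counts, and in SW948 it called 973 genes where the main fit called 0. These gains are not taken as tests. With at least 10 counts in every sample it went to 1 in DLD1, 0 in HCT15, 1 for time with CFSE and 0 for dye at d1. DESeq2 called 1 in SW48, 2 in HCT15 and 3 for the difference between lines. Without TMM 2 were called for the difference between lines and 1 for time with DMSO. With all 48 samples in 1 fit 2 were called in SW948, 1 in SW48 and 2 in HCT15. The cause was not tested.

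With the replicate number as a block, 1 member was called in SW948 (TIMP2, adjusted p = 0.0297), 2 in SW48, 4 in HCT15, 5 for the difference between lines and 1 for dye at d5 (TIMP1, adjusted p = 0.00855). The block also called MMP10 for time over both dyes (adjusted p = 8.29e-05, and 0.136 without the block). MMP10 entered that fit only through the 4 CFSE d1 libraries, where it was high, so this call is not taken as a test. In SW948, RKO and the controls the numbers did not meet the rule for pairing (lowest correlation -0.0136, -0.0912 and -0.273). Beside these and the blocked values given with the results, the block changed no call of a member.

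Leaving out 1 library or replicate number gave 3 to 4 members across the lines, 0 to 1 in SW948, 5 to 7 in RKO, 0 in HCT15, 1 to 2 for the difference between lines, 2 to 4 for time with CFSE, 0 to 2 for time with DMSO, 1 to 2 for dye at d1, 0 to 1 for dye at d5 and 0 to 1 for the interaction. The following were chosen after seeing the data. Without both CFSE d1 replicates 1 and 2, 1 member was called for time with CFSE and 0 for dye at d1. With replicates 3 and 4 only, 1 was called for time with CFSE, 0 for time with DMSO, 0 for dye at d1 and 1 for time over both dyes. With replicates 1 and 2 only, 0 were called for dye at d1, 2 for dye at d5 and 2 for the interaction.

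Over all genes, calls moved by more than 1.5 times with the block in SW948 (0 to 501), SW48 (105 to 1279), DLD1 (1978 to 4591), HCT15 (137 to 2987), the difference between lines (2380 to 5584) and dye at d5 (745 to 1511). DESeq2 called 37 genes in HT55, 244 in SW948, 361 in SW48, 531 in HCT15, 1521 for dye at d5 and 623 for the interaction. Without a filter the counts were 102 in HT55, 973 in SW948, 285 in SW48, 347 in HCT15 and 454 for the interaction (main count 145). Without TMM the interaction called 85. With all 48 samples in 1 fit they were 106 in HT55, 389 in SW948, 486 in SW48, 646 in DLD1 and 697 in HCT15. Leaving out 1 library or replicate number gave 2243 to 2945 genes across the lines (3803 with all), 0 to 521 in HT55, 0 to 1956 in SW948, 21 to 182 in SW48, 963 to 1784 in DLD1, 0 to 233 in HCT15, 522 to 2850 for the difference between lines, 963 to 6077 for time with DMSO, 1358 to 3715 for dye at d1, 0 to 1923 for dye at d5 and 16 to 880 for the interaction.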
